A study of Mus musculus with 28 samples.

Results

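Neurotrophic and growth factors are secreted proteins, and the receptors that bind them, through which neurons, glia and vessels receive signals for survival and growth. The set described here held 10 listed genes, Bdnf, Ntrk2, Ngfr, Gdnf, Cntf, Lif, Igf1, Vegfa, Fgf2 and Hbegf. They were listed by symbol, with earlier results of these data known. Of these, 9 had an array row of their own, out of 30800 genes named on the array. The row that lists Cntf, which encodes ciliary neurotrophic factor, is shared with Zfp91 and the readthrough gene Zfp91Cntf, so no value is given for Cntf. Each of the other 9 had 1 row, which was therefore its brightest.

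The arrays came from cortical tissue of mice labelled as knockout (KO) or wild type (WT) for Rbm5, which encodes a splicing regulator. The groups were KO after controlled cortical impact (CCI), KO after sham, WT after CCI and WT after sham, with 7 animals each, aged 12 to 15 weeks. CCI animals had a craniotomy over the left parietal cortex and a mechanical impact, whereas sham animals had anaesthesia only, so that the injury change includes the craniotomy. Males numbered 4 of 7 in KO sham and 3 of 7 in each of the other groups, and tissue was collected at 48 h in all groups. The sources used here do not say how the knockout allele was made or whether it is restricted to some cells.

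Neurotrophins such as Bdnf act through Trk receptor kinases and the shared receptor Ngfr (p75). Gdnf signals through Gfra co-receptors and Ret, and Lif and Cntf signal through receptor complexes that contain Il6st (gp130) and activate Stat3. Igf1, Vegfa, Fgf2 and Hbegf each bind receptor tyrosine kinases, and in brain tissue these ligands come from neurons, glia, vessels and infiltrating cells in varying proportion. In cortex, Bdnf transcription is known to follow neuronal activity, Vegfa transcription is induced by low oxygen, and Lif and Hbegf are known as early injury-induced signals.

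Values are log2 array signal, and changes are differences of log2 signal with their standard errors (SE) from limma, called at a p-value under 0.05 after Benjamini-Hochberg adjustment over all 65956 rows tested. Rbm5 averaged 9.75 ± 0.038 in KO CCI, 9.76 ± 0.065 in KO sham, 10.66 ± 0.063 in WT CCI and 10.78 ± 0.042 in WT sham (SD, n = 7 each), and every KO array lay below every WT array after the same procedure. The array medians lay between 5.79 and 5.90. The mean of 8 neuron markers was 13.17 or more on every array, and 7 arrays (KO CCI 22 and 40, WT CCI 13, 14, 16 and 35, and WT sham 25) stood apart with high striatum or choroid plexus markers. Striatum markers reached 10.26 in KO CCI and 9.97 in WT CCI, against at most 8.51 in KO sham and 7.80 in WT sham. Choroid plexus markers reached 8.33 in KO CCI, 8.64 in WT CCI and 8.54 in WT sham, against at most 6.37 in KO sham.

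Each growth factor gene was set against the negative control rows. Ntrk2 lay above the 95th percentile of the negative control rows on all 28 arrays, and the other 8 measured genes lay below it on all 28. Gdnf and Lif lay below the median of their own array on every array, and Bdnf did so on every CCI array. The array medians of the negative control rows lay between 6.54 and 6.75. Every value of Bdnf, Ngfr, Gdnf and Lif lay below that range, and every Vegfa value lay above it. The levels of the 8 genes below the 95th percentile were not shown to exceed background, and the fold changes below are differences in signal. The same limit holds for other named genes whose signal lay below that percentile, which was 10.16 or more on every array. In bulk tissue, fewer cells of a type and less RNA per cell cannot be told apart.

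Promoter sequence is shown for Bdnf and Lif, whose injury changes differed most between genotypes, although neither difference was called (the values are given below). Each run gives the 250 bases before an annotated start, from RefSeq on GRCm38.p6, on the strand of transcription. The Bdnf window lies at chr2:109692186-109692435 (plus strand), before the third of 7 annotated Bdnf starts (shown because both motifs match there). Its capitals mark overlapping matches to TGACG, the half-site bound by CREB, and ACGTG, the core of the hypoxia response element. Both of these matches lie on the opposite strand, so the run reads CGTCA and CACGT there. The Lif window lies at chr11:4257318-4257567 (plus strand), and its capitals mark TGACTCA, a form of the AP-1 motif. The pattern searched was TGANTCA, which takes any base in the middle and is therefore looser than that motif.
Bdnf, window 3: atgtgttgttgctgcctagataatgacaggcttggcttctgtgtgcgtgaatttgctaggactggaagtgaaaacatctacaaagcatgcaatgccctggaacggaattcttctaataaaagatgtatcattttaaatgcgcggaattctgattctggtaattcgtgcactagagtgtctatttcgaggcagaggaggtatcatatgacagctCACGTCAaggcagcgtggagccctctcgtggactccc
Lif, window 1: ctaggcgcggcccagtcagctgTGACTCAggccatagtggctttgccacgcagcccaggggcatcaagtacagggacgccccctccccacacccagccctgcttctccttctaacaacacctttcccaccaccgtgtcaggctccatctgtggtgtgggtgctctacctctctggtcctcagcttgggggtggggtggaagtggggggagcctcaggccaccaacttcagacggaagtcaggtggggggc
Matches were searched on both strands, and TGACG also lies within the full cAMP response element TGACGTCA. Among 17 windows of the 9 listed genes for which windows were used, 4 held TGANTCA, 5 held ACGTG, 4 held TGACG and 0 held TGACGTCA. The TGANTCA matches read TGACTCA in Lif and Cntf and TGAATCA in Bdnf and Igf1. Among 32851 windows of all genes the shares were 6.75% for TGANTCA, 16.6% for ACGTG, 17.8% for TGACG and 1.55% for TGACGTCA. Bdnf had 1 array row, so no start has a value of its own, and the part of the gene that the row measures is not given.

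After CCI, Fgf2 and Hbegf rose and Ntrk2 fell in both genotypes, Lif rose in KO, and Bdnf and Vegfa fell in WT. In KO, 4 of the 9 measured genes were called, 3 higher and 1 lower, where 16.7% of all rows were called, 8.43% higher and 8.27% lower. In WT, 5 of 9 were called, 2 higher and 3 lower, where 16.8% of all rows were called, 8.86% higher and 7.96% lower. The CCI and sham arrays did not overlap for 4 of 9 genes in KO, against 6.38% of all rows, and for 4 of 9 in WT, against 7.26%. The median change over the 9 genes was 0.09 in KO and -0.04 in WT, beside 0.022 and -0.01 over all named genes.

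**Figure D1:**
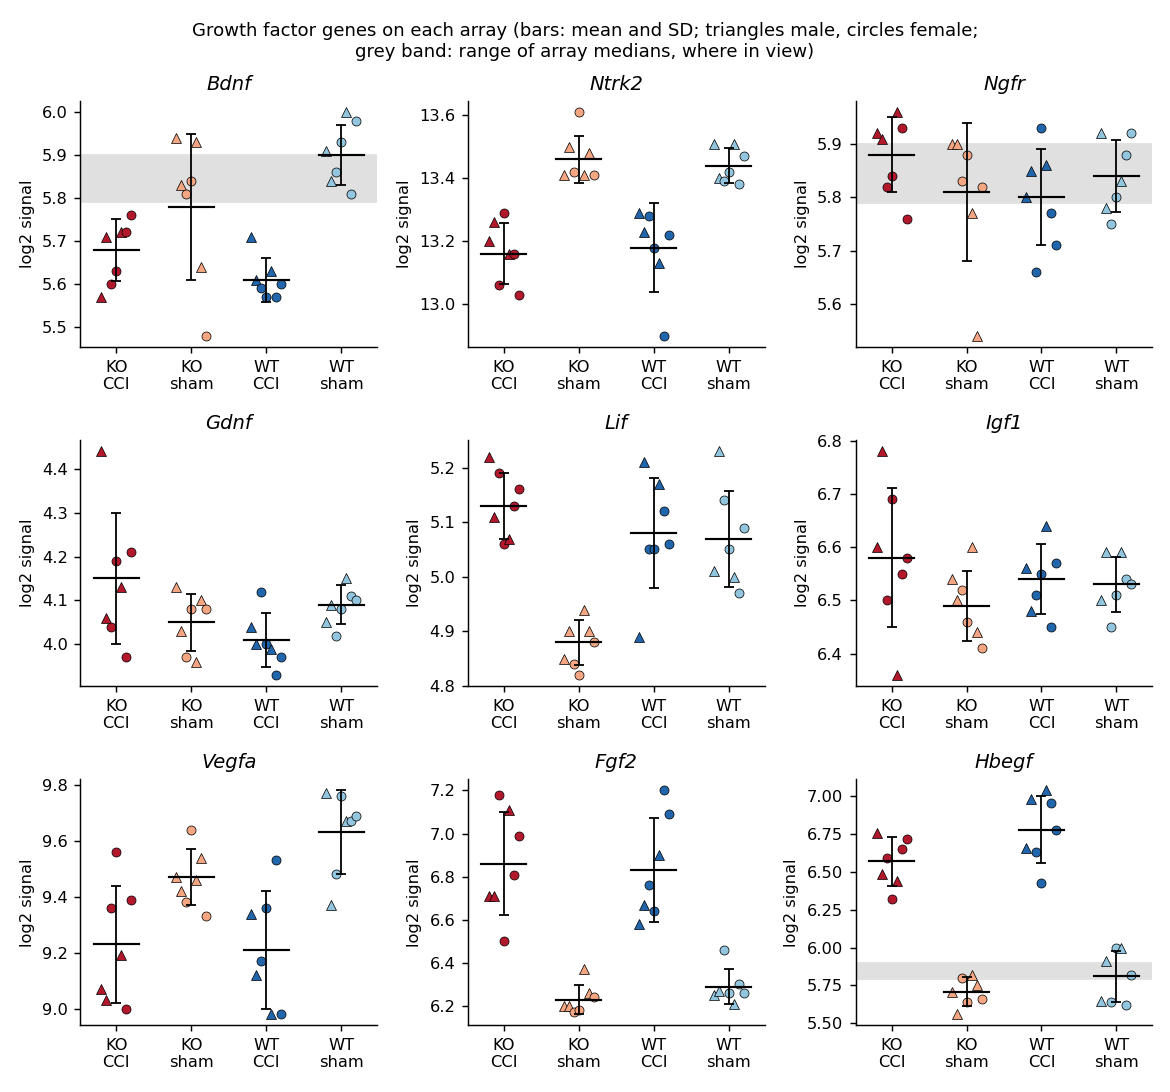
Log2 signal (vertical axes) of the 9 measured growth factor genes on each of 28 arrays, by group (horizontal axes), with triangles for males, circles for females and bars for the mean and SD of 7 arrays. Hbegf and Fgf2 are higher and Ntrk2 is lower on every CCI array than on every sham array of the same genotype, and Lif in KO sham lies below each of the other groups except for 1 WT CCI array at 4.89.

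Bdnf, the main activity-dependent neurotrophin of cortex, ranged from 5.57 to 5.76 (median 5.71) in KO CCI and from 5.48 to 5.94 (median 5.83) in KO sham. It ranged from 5.57 to 5.71 (median 5.60) in WT CCI and from 5.81 to 6.00 (median 5.91) in WT sham. The WT groups did not overlap, whereas the KO groups did, since 2 KO sham arrays lay as low as the CCI arrays. In WT, Bdnf fell by 0.29 (SE 0.056, 1.23-fold lower, limma adjusted p = 0.00027). In KO the change was -0.099 (SE 0.056, adjusted p = 0.271), with a 95% interval of -0.21 to 0.02. Without KO sham 33, the lowest KO sham array at 5.48, the KO change was -0.15 and was called (adjusted p = 0.0379). Over all single arrays left out, its adjusted p ran up to 0.461. The KO change was -0.22 in title numbers 1 to 24 (adjusted p = 0.0176) and 0.088 in 25 to 42 (adjusted p = 0.717).

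Ntrk2, the receptor kinase of Bdnf (TrkB), is made by neurons and, in a truncated form, by astrocytes. It ranged from 13.03 to 13.29 (median 13.16) in KO CCI and from 13.41 to 13.61 (median 13.42) in KO sham. It ranged from 12.90 to 13.29 (median 13.22) in WT CCI and from 13.38 to 13.51 (median 13.42) in WT sham. Every CCI array lay below every sham array of its genotype. Ntrk2 fell by 0.29 in KO (SE 0.054, 1.22-fold lower, adjusted p = 0.00027) and by 0.27 in WT (SE 0.054, 1.20-fold lower, adjusted p = 0.000606). The row does not separate the full-length from the truncated form.

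Ngfr, the shared low-affinity neurotrophin receptor, gave medians of 5.91 in KO CCI, 5.83 in KO sham, 5.80 in WT CCI and 5.83 in WT sham, over a range of 5.54 to 5.96. All 4 groups overlapped. Its injury change was 0.075 in KO (95% interval -0.03 to 0.19, adjusted p = 0.41) and -0.044 in WT (-0.15 to 0.07, adjusted p = 0.669), so that neither was called.

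Of 10 other genes of neurotrophin signalling, 7 had a row of their own, and 2 rose and 2 fell in each genotype. Over all named genes, 12.5% rose and 8.78% fell in KO, and 13.8% rose and 8.38% fell in WT. The injury counts of this list and of the gene and marker lists below stand beside those shares. Ntrk3, the receptor kinase of neurotrophin-3, fell by 0.55 in KO (SE 0.059, adjusted p = 1.06e-07) and by 0.50 in WT (SE 0.059, adjusted p = 2.89e-07). Sort1, which encodes the proneurotrophin receptor sortilin, fell by 0.42 in KO and by 0.39 in WT (adjusted p = 2.38e-07 and 4.94e-07). Plat, the plasminogen activator whose product plasmin cleaves pro-Bdnf, rose by 0.31 in KO (adjusted p = 0.0175, or 0.0513 without KO sham 11) and by 0.43 in WT (adjusted p = 0.000758). Furin, a protease that processes proneurotrophins, rose by 0.20 in both (adjusted p = 0.000883 in KO and 0.000594 in WT).

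Of 8 neuron markers, 3 fell, 0 rose and 5 were not called in each genotype. Their mean level ranged from 13.17 to 13.30 in KO CCI and from 13.40 to 13.52 in KO sham, and from 13.20 to 13.54 in WT CCI and from 13.43 to 13.52 in WT sham. Of 10 activity-regulated genes, 4 fell and 0 rose in each genotype, among them the transcription factor genes Npas4, Nr4a1 and Egr3. Npas4 fell by 1.40 in KO and by 1.41 in WT (adjusted p = 0.000648 and 0.000493), and Egr3 fell by 1.21 in KO and by 0.83 in WT (adjusted p = 2.29e-06 and 0.000254). Nr4a1 fell by 1.17 in KO and by 1.46 in WT (adjusted p = 0.0151 and 0.00221), although its KO change was -0.85 without KO sham 12 and not called. The part of either list in the change of Bdnf and Ntrk2 was not tested.

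**Figure D2:**
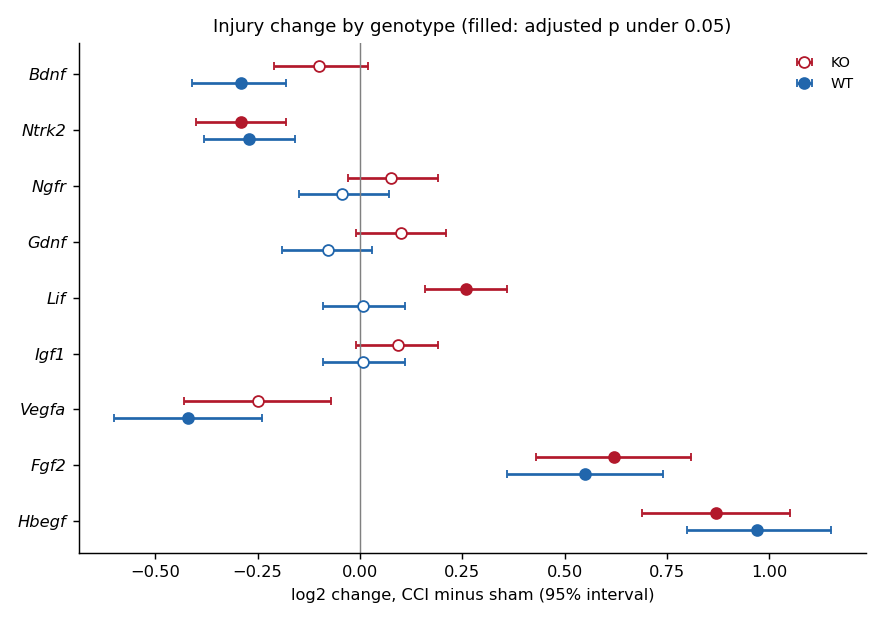
Change in log2 signal after injury, CCI minus sham (horizontal axis), for the 9 measured growth factor genes, with KO above WT in each pair, 95% intervals as bars and filled points where the adjusted p was under 0.05. Hbegf and Fgf2 lie to the right of 0 and Ntrk2 to the left in both genotypes, whereas Lif is filled in KO only and Bdnf and Vegfa in WT only, differences between genotypes that were not called.

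Gdnf, a survival factor of dopaminergic and motor neurons, gave medians of 4.13 in KO CCI, 4.08 in KO sham, 4.0 in WT CCI and 4.09 in WT sham, with overlap between CCI and sham in both genotypes. The injury change was 0.10 in KO (95% interval -0.01 to 0.21, adjusted p = 0.23) and -0.079 in WT (-0.19 to 0.03, adjusted p = 0.375). Among its partners, Gfra1, the co-receptor of Gdnf, rose by 0.47 in KO (SE 0.081, adjusted p = 0.000118) and by 0.76 in WT (SE 0.08, adjusted p = 4.11e-08). Gfra2, the co-receptor of neurturin, fell by 0.66 in KO (SE 0.11, adjusted p = 4.4e-05) and by 0.41 in WT (SE 0.11, adjusted p = 0.00609). Ret, the signalling receptor of the family, rose by 0.15 in WT (adjusted p = 0.0279), a call lost without WT sham 25 or WT CCI 13, 16 or 36. In all, 1 of 8 measured genes of the family rose and 1 fell in KO, and 2 rose and 1 fell in WT.

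Lif, a cytokine of the interleukin-6 family, ranged from 5.06 to 5.22 (median 5.13) in KO CCI and from 4.82 to 4.94 (median 4.88) in KO sham. It ranged from 4.89 to 5.21 (median 5.06) in WT CCI and from 4.97 to 5.23 (median 5.05) in WT sham. The KO groups did not overlap and the WT groups did, and the KO sham arrays were the low ones. Lif rose by 0.26 in KO (SE 0.047, 1.20-fold, adjusted p = 0.00021). In WT its change was 0.0081 (95% interval -0.09 to 0.11, adjusted p = 0.944).

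The cytokine system around Il6st was taken as a list of 11 other measured genes. It holds related ligands and their receptors (such as Il6, Il11, Osm and Osmr) beside the receptors and effectors of Lif and Cntf. Of these, 6 rose and 2 fell in KO, and 6 rose and 1 fell in WT. Over all named genes, 12.5% rose and 8.78% fell in KO, and 13.8% rose and 8.38% fell in WT. Osmr, the receptor of oncostatin M, averaged 9.34 in KO CCI and 7.19 in KO sham, and 9.54 in WT CCI and 7.06 in WT sham. Osmr rose by 2.14 in KO (SE 0.12, adjusted p = 1.34e-12) and by 2.48 in WT (SE 0.12, adjusted p = 2.78e-14), although its group means lay below the negative control percentile too. Stat3, the transcription factor activated by these receptors, rose by 1.33 in KO and by 1.5 in WT (adjusted p = 3.76e-13 and 1.62e-14). Il6st, the shared signalling subunit, rose by 0.37 in KO and by 0.54 in WT (adjusted p = 0.000303 and 1.32e-06), and Clcf1, another ligand of the Cntf receptor, rose by 0.46 and by 0.39 (adjusted p = 7.36e-07 and 4.94e-06).

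Other receptor subunits of this system fell. Lifr, the receptor subunit that binds Lif, fell by 0.18 in KO (adjusted p = 0.0192) and by 0.21 in WT (adjusted p = 0.00567). Cntfr, the binding subunit for Cntf, fell by 0.18 in KO (adjusted p = 0.0372) and changed by -0.03 in WT, where it was not called. The calls of Il6st in KO and of Clcf1 in WT were not followed through the alternatives. The Lifr calls were lost without the 7 arrays that stood apart (adjusted p = 0.0768 in KO and 0.0772 in WT), as was that of Cntfr in KO (0.0926), and the KO calls also without single arrays, Lifr without KO CCI 40 and Cntfr without any of 8. Monocyte and macrophage markers, of which 7 of 8 rose in KO and 8 of 8 in WT, had mean levels of 6.25 to 6.85 in KO CCI against 5.27 to 5.46 in KO sham, and of 6.34 to 6.99 in WT CCI against 5.34 to 5.48 in WT sham. Their part in these changes was not tested.

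**Figure D3:**
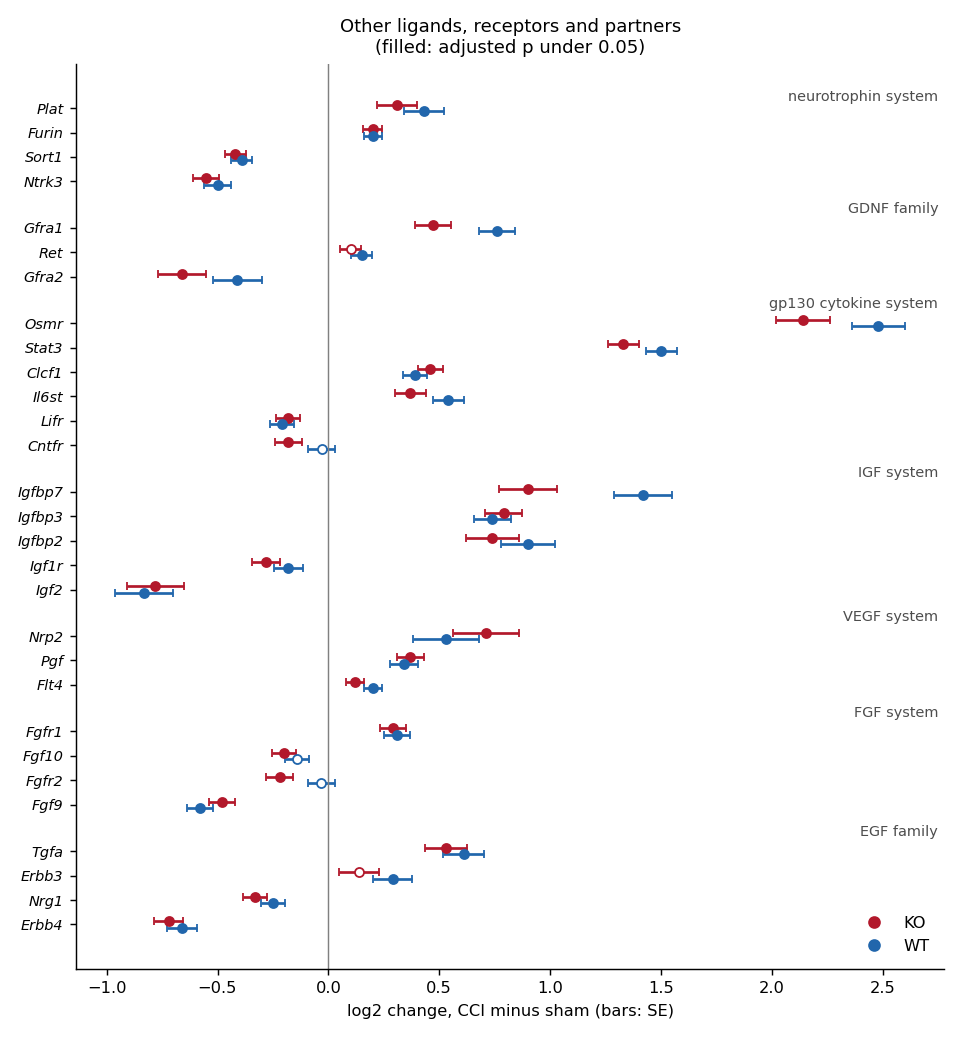
Change in log2 signal after injury, CCI minus sham (horizontal axis), for called ligands, receptors and partners of the 7 signalling systems, with KO above WT, SE as bars and filled points where the adjusted p was under 0.05. Osmr at 2.14 in KO and 2.48 in WT lies farthest to the right, and Igf2 at -0.78 in KO and -0.83 in WT farthest to the left.

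Igf1, a growth factor made in brain by neurons and by activated microglia, gave medians of 6.58 in KO CCI, 6.50 in KO sham, 6.55 in WT CCI and 6.53 in WT sham. The groups overlapped, and KO CCI held both the lowest value of all 28 arrays at 6.36 and the highest at 6.78. The change was 0.092 in KO (95% interval -0.01 to 0.19, adjusted p = 0.244) and 0.0072 in WT (-0.09 to 0.11, adjusted p = 0.953). Without KO CCI 40, which gave the 6.36, the KO change was 0.14 and was called (adjusted p = 0.0335). Over all single arrays left out, its adjusted p ran up to 0.504.

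In the rest of the insulin-like growth factor system, 3 of 9 measured genes rose and 2 fell in each genotype, and 4 were not called. The binding protein genes Igfbp7, Igfbp2 and Igfbp3 rose by 0.90, 0.74 and 0.79 in KO and by 1.42, 0.90 and 0.74 in WT, with adjusted p between 2.18e-09 and 4.73e-05. Igf2, a ligand made largely by meninges and choroid plexus, fell by 0.78 in KO (SE 0.13, adjusted p = 8.14e-05) and by 0.83 in WT (SE 0.13, adjusted p = 2.4e-05). Igf1r, the receptor kinase, fell by 0.28 in KO (adjusted p = 0.0025) and by 0.18 in WT (adjusted p = 0.0485), and the WT call was lost when any 1 of 20 arrays was left out. Meningeal fibroblast markers, 1 of 5 higher and 1 of 5 lower in each genotype, had mean levels of 6.90 to 8.35 in KO CCI, 7.12 to 7.62 in KO sham, 7.17 to 7.89 in WT CCI and 7.21 to 7.80 in WT sham, and their part in the change of Igf2 was not tested.

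Vegfa, the principal growth factor of blood vessels, ranged from 9.0 to 9.56 (median 9.19) in KO CCI and from 9.33 to 9.64 (median 9.46) in KO sham. It ranged from 8.98 to 9.53 (median 9.17) in WT CCI and from 9.37 to 9.77 (median 9.67) in WT sham. CCI arrays were the low ones but overlapped sham in both genotypes, with 4 of 7 KO CCI arrays below every KO sham array and 6 of 7 WT CCI arrays below every WT sham array. Vegfa fell by 0.42 in WT (SE 0.088, 1.34-fold lower, adjusted p = 0.000939). In KO the change was -0.25 (SE 0.089, 95% interval -0.43 to -0.07) at an adjusted p of 0.0558, just short of the threshold. Leaving out any 1 of 4 arrays brought it under the threshold (adjusted p down to 0.0185 without KO CCI 24). Other single removals took its adjusted p up to 0.129.

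Of 8 other measured genes of the system, 3 rose, 0 fell and 5 were not called in each genotype. Pgf, which encodes placental growth factor, rose by 0.37 in KO and by 0.34 in WT (adjusted p = 8.25e-05 and 0.000166). Nrp2, a co-receptor, rose by 0.71 in KO and by 0.53 in WT (adjusted p = 0.00087 and 0.0114). Flt4, the receptor of lymphatic growth factors, rose by 0.12 in KO and by 0.20 in WT (adjusted p = 0.0385 and 0.000507), and the KO call was lost without any 1 of 8 arrays, with quantile normalization (0.068, adjusted p = 0.241) and with array medians centred (0.075, adjusted p = 0.201).

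Of 10 hypoxia targets, 0 were called in KO, and 3 rose and 0 fell in WT, where 12.5% and 13.8% of all named genes rose. The difference of those injury changes was called for 0 of 10, as for 0.0% of all named genes. Adm, a vasodilator peptide gene, changed by 0.58 in KO (adjusted p = 0.121) and by 1.02 in WT (adjusted p = 0.00363). Slc2a1, the glucose transporter of the blood-brain barrier, changed by 0.22 in KO (adjusted p = 0.236) and by 0.70 in WT (adjusted p = 5.51e-05). The glycolytic gene Pgk1 changed by 0.068 in KO (adjusted p = 0.471) and by 0.17 in WT (adjusted p = 0.0287), and the WT call was lost without any 1 of 6 arrays. Of 6 endothelial markers, 3 rose in KO and 4 in WT and 1 fell in each, with mean levels of 8.49 to 8.81 in KO CCI, 8.21 to 8.50 in KO sham, 8.73 to 9.18 in WT CCI and 8.34 to 8.61 in WT sham. Their part in the change of Vegfa was not tested.

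Fgf2, a basic fibroblast growth factor made by astrocytes, ranged from 6.50 to 7.18 (median 6.81) in KO CCI and from 6.17 to 6.37 (median 6.20) in KO sham. It ranged from 6.58 to 7.20 (median 6.76) in WT CCI and from 6.21 to 6.46 (median 6.26) in WT sham. Every CCI array lay above every sham array of its genotype, and the CCI groups were the more spread. Fgf2 rose by 0.62 in KO (SE 0.093, 1.54-fold, adjusted p = 1.8e-05) and by 0.55 in WT (SE 0.092, 1.46-fold, adjusted p = 6.36e-05).

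Nudt6, the antisense partner that overlaps Fgf2 in the RefSeq annotation of GRCm38.p6, has a row of its own. Nudt6 rose by 0.26 in KO (SE 0.067, adjusted p = 0.00575) and changed by 0.18 in WT (SE 0.067, adjusted p = 0.0607). Whether signal of one gene reaches the row of the other was not tested. Fgfr1, a receptor of Fgf2, rose by 0.29 in KO and by 0.31 in WT (adjusted p = 0.000632 and 0.000253), and Fgf9, a ligand made by neurons, fell by 0.48 and by 0.58 (adjusted p = 1.05e-06 and 2.69e-08). Fgfr2 and Fgf10 also fell in KO, by 0.22 and 0.20 (adjusted p = 0.0107 and 0.00838). Thus 1 of 9 measured genes rose and 3 fell in KO (11.1% and 33.3%), and 1 rose and 1 fell in WT (11.1% each). Of all named genes, 12.5% rose and 8.78% fell in KO, and 13.8% rose and 8.38% fell in WT.

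Hbegf, a membrane-anchored ligand of the epidermal growth factor receptor, ranged from 6.32 to 6.76 (median 6.59) in KO CCI and from 5.56 to 5.82 (median 5.71) in KO sham. It ranged from 6.43 to 7.04 (median 6.78) in WT CCI and from 5.62 to 6.00 (median 5.82) in WT sham. The lowest CCI array of each genotype stood well above the highest sham array. Hbegf rose by 0.87 in KO (SE 0.087, 1.83-fold, adjusted p = 3.04e-08) and by 0.97 in WT (SE 0.086, 1.97-fold, adjusted p = 2.02e-09), the largest change among the 9 measured genes in either genotype.

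Tgfa, another ligand of the same receptor, rose by 0.53 in KO and by 0.61 in WT (adjusted p = 0.00015 and 1.6e-05). Erbb4, a neuregulin receptor of cortical interneurons, fell by 0.72 in KO (SE 0.066, adjusted p = 7.58e-09) and by 0.66 in WT (SE 0.066, adjusted p = 1.45e-08). Its ligand Nrg1 fell by 0.33 in KO and by 0.25 in WT (adjusted p = 6.1e-05 and 0.00152). Erbb3, a neuregulin receptor, rose by 0.29 in WT (adjusted p = 0.0219), a call lost without WT sham 2, WT CCI 13 or WT CCI 16 and without the 7 arrays that stood apart. In all, 1 of 10 measured genes of the family rose and 2 fell in KO, and 2 rose and 2 fell in WT.

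Of 8 astrocyte markers, 4 rose in KO and 5 in WT and 1 fell in each, beside the rise of Fgf2 and Hbegf and the fall of Ntrk2. Their mean level ranged from 11.11 to 11.56 in KO CCI and from 10.56 to 11.10 in KO sham, and from 11.03 to 11.61 in WT CCI and from 10.56 to 10.64 in WT sham. Gfap had the largest rise of the 8, by 3.06 in KO and by 4.55 in WT (adjusted p = 5.16e-08 and 2.04e-11), and the median change of the 8 markers was 0.25 in KO and 0.32 in WT. The marker that fell was Slc1a2, the glutamate transporter of astrocytes, by 0.36 in KO and by 0.37 in WT (adjusted p = 2.09e-05 and 9.12e-06). Of 6 microglia markers, 3 rose in KO and 4 in WT, and 0 fell in either. Of 5 oligodendrocyte markers, 0 were called in KO (median change -0.11) and 4 rose in WT (median change 0.49). The difference of those injury changes was called for 0 of 5, as for 0.0% of all named genes. After CCI, 1 of the 5 was called between genotypes, Mbp, lower by 0.42 in KO (adjusted p = 0.049). That direction was called for 0.584% of all named genes, and the Mbp call was not followed through the alternatives. Of 3 oligodendrocyte precursor markers, 2 rose in each genotype. The part of these markers in the growth factor changes was not tested.

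The called injury changes of the growth factor genes kept their calls without the 7 arrays that stood apart. Without them, in KO, Ntrk2 changed by -0.32, Lif by 0.30, Fgf2 by 0.60 and Hbegf by 0.93, with adjusted p from 3.29e-07 to 0.000485. In WT without them, Bdnf changed by -0.28, Ntrk2 by -0.22, Vegfa by -0.58, Fgf2 by 0.62 and Hbegf by 1.04, with adjusted p from 3.26e-07 to 0.0252. Leaving out any single array kept all 9 of these calls. Among the 64 pathway gene values that were followed through the alternatives, the calls lost without the 7 arrays, beside those of Lifr, Cntfr and Erbb3 and that of Igfbp5 after sham, were Fgf10 (adjusted p = 0.0892) and Nudt6 (0.0528) in KO, and Gfra2 (0.0702), Ret (0.38), Igf1r (0.0576), Nr4a1 (0.0916) and Pgk1 (0.0764) in WT.

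Title numbers fall into a first run (1 to 24) and a second run (25 to 42), both of which hold arrays of the 4 groups, and what the runs are is not labelled. Every called growth factor change had the same sign in both runs. Hbegf kept its call in both runs in each genotype (0.86 and 0.89 in KO, 0.87 and 1.11 in WT), as did Fgf2 in KO (0.59 and 0.68). Fgf2 in WT changed by 0.35 in the first run (adjusted p = 0.0525) and by 0.81 in the second (adjusted p = 0.00108). The smaller changes of Bdnf in WT, Ntrk2 in both genotypes and Lif in KO were called in 1 run each, and Vegfa in WT in neither (adjusted p = 0.0703 and 0.0667).

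**Figure D4:**
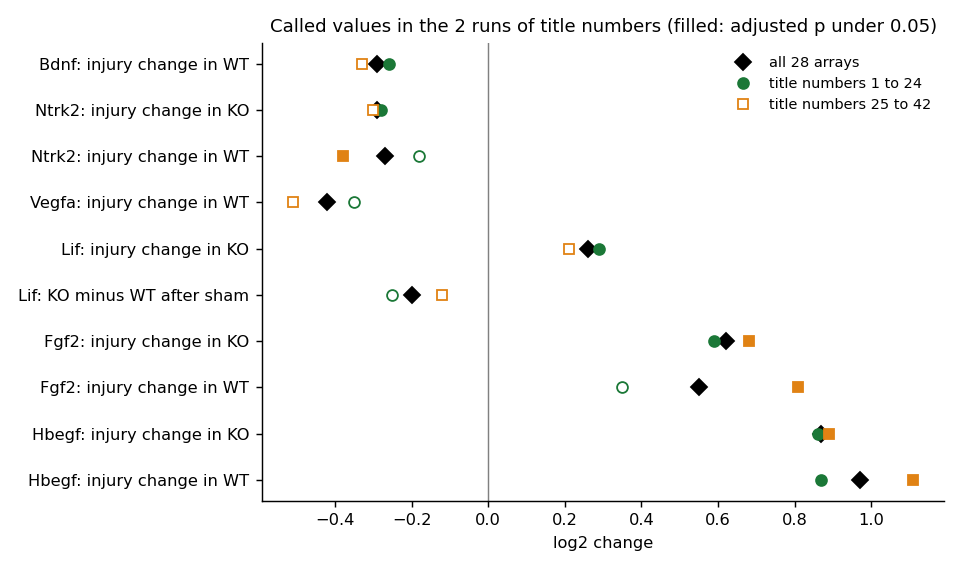
Log2 change (horizontal axis) of the 10 called growth factor values over all 28 arrays (diamonds), over arrays with title numbers 1 to 24 (circles) and over those with numbers 25 to 42 (squares), filled where the adjusted p was under 0.05. The 3 points of each value lie on the same side of 0, and Fgf2 in WT shows the widest gap, from 0.35 to 0.81.

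Between genotypes, Lif after sham was the called difference. After CCI, 0 of 9 genes were called, where 0.653% of all rows were, and 2 had an unadjusted p under 0.05. These were Gdnf, higher by 0.14 in KO (95% interval 0.03 to 0.25, adjusted p = 0.322), and Hbegf, at -0.22 (-0.39 to -0.04, adjusted p = 0.361). For Ntrk2, Lif, Igf1, Bdnf and Ngfr the intervals after CCI lay within -0.12 and 0.19, and for Vegfa and Fgf2 within -0.17 and 0.21. Of 6 endothelial markers, 2 were lower in KO after CCI, Pecam1 by 0.34 and Cdh5 by 0.49 (adjusted p = 0.0228 and 0.0197). Of 8 neuron markers 1 was lower, Nefm by 0.38 (adjusted p = 0.00619), where 0.584% of all named genes were lower. These markers are named after their values were seen, and their calls were not followed through the alternatives. Their part in the growth factor values was not tested.

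After sham, 1 of 9 genes was called, where 1.28% of all rows were. Lif lay at 4.82 to 4.94 in KO sham and at 4.97 to 5.23 in WT sham, without overlap, as for 1.07% of all rows. It was lower by 0.20 in KO (SE 0.047, 1.15-fold lower, adjusted p = 0.0345). The call did not hold within either title run (-0.25, adjusted p = 0.192, and -0.12, adjusted p = 0.813), nor without any 1 of 9 sham arrays (WT sham 2, 3, 4 or 27, or KO sham 9, 10, 11, 12 or 33), with adjusted p up to 0.093. Without the 7 arrays that stood apart, which hold 1 sham array, it was -0.22 (adjusted p = 0.0132).

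Astrocyte markers averaged 10.56 to 11.10 in KO sham and 10.56 to 10.64 in WT sham, oligodendrocyte markers 10.29 to 10.91 in KO sham and 10.02 to 10.54 in WT sham. Of 8 astrocyte markers 1 was called, Gfap, an intermediate filament gene of reactive astrocytes, where 0.649% of all named genes were higher. Gfap lay at 12.40 ± 0.98 in KO sham and 11.02 ± 0.27 in WT sham (SD, n = 7 each), higher by 1.36 in KO (adjusted p = 0.0263). The median difference of the 8 astrocyte markers was 0.04. The Gfap call was not followed through the alternatives, and the part of these astrocyte and oligodendrocyte markers in the Lif difference was not tested. Bdnf after sham was next, at -0.13 in KO (unadjusted p = 0.028, adjusted p = 0.356), and the other 7 genes had unadjusted p of 0.0981 or more. Among the other genes of the 7 signalling systems, Igfbp5, a binding protein gene of the insulin-like growth factors, was the single call after sham, higher by 0.51 in KO (adjusted p = 0.0473), and it is named after its value was seen. Igfbp5 was 1 of 9 measured genes of its system, where 0.649% of all named genes were higher. The call was lost without any 1 of 20 arrays and without the 7 arrays that stood apart (adjusted p = 0.0565).

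Over both procedures together, 0 of 9 genes were called, where 3.16% of all rows were, 1.36% higher and 1.8% lower in KO, and the values ran from -0.16 for Hbegf (adjusted p = 0.196) to 0.051 for Gdnf. Among the other genes of the 7 signalling systems, 4 were called over both procedures, and they are named after their values were seen. Sort1 was lower by 0.14 in KO (adjusted p = 0.014), Lifr by 0.15 (adjusted p = 0.0173) and Fgf9 by 0.16 (adjusted p = 0.0359), and Igfbp5 was higher by 0.33 (adjusted p = 0.0451). Sort1 was 1 of 7 measured genes of its system, Lifr 1 of 11, Fgf9 1 of 9 and Igfbp5 1 of 9. Of all named genes, 1.76% were higher and 2.61% lower. These 4 values were not followed through the alternatives. Of 6 endothelial markers, 3 were lower in KO over both procedures, Pecam1 by 0.21, Cdh5 by 0.32 and Emcn by 0.19. Their adjusted p were 0.0223, 0.0119 and 0.0376. Of 8 neuron markers 1 was lower, Nefm by 0.28 (adjusted p = 0.0012), where 2.61% of all named genes were lower. The calls of these markers were not followed through the alternatives, and their part in the growth factor values was not tested.

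**Figure D5:**
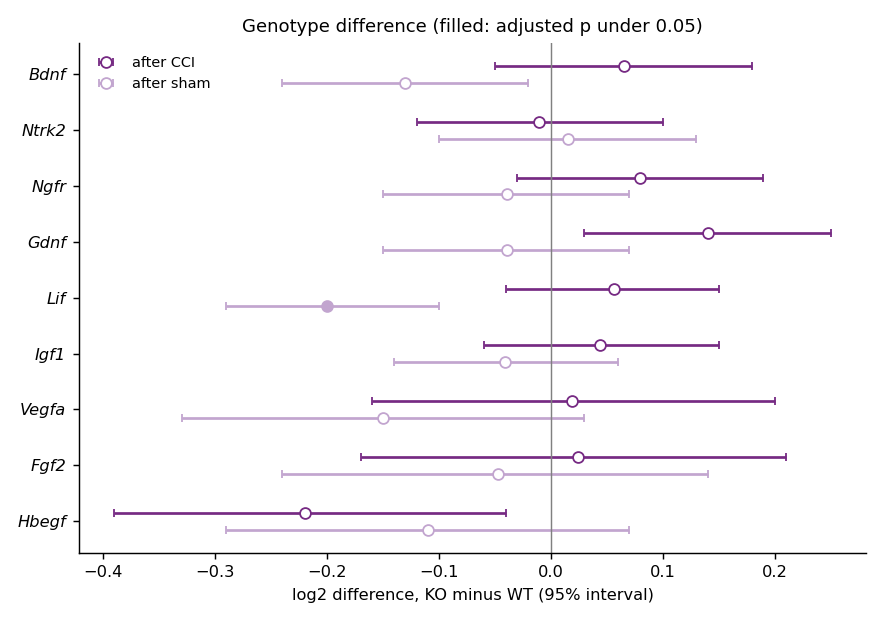
Difference in log2 signal between genotypes, KO minus WT (horizontal axis), for the 9 measured growth factor genes, after CCI above and after sham below in each pair, with 95% intervals as bars and a filled point where the adjusted p was under 0.05. Lif after sham, at -0.20, is the filled point, and 0 of the 9 points after CCI are filled.

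The design also asks whether the injury change itself differed between KO and WT. That difference was called for 0 of 9 genes by limma, and 0.0% of all rows were called at an adjusted p under 0.05, while 4097 rows, or 6.21%, had an unadjusted p under 0.05. Lif had the largest difference, 0.25 (KO minus WT, SE 0.067, 95% interval 0.12 to 0.39, unadjusted p = 0.000799, adjusted p = 0.713). Bdnf followed at 0.20 (0.03 to 0.36, unadjusted p = 0.0199, adjusted p = 0.779) and Gdnf at 0.18 (0.03 to 0.33, unadjusted p = 0.024, adjusted p = 0.779). For Hbegf, Fgf2, Ntrk2 and Vegfa, the intervals were -0.36 to 0.15, -0.20 to 0.34, -0.18 to 0.13 and -0.09 to 0.43, so differences of about that size remain possible for them.

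Injury changes of males and females were compared within each genotype. The difference was called for 0 of 9 genes in KO and 0 of 9 in WT (adjusted p of 0.949 or more), with 0 rows of all called in KO and 4 in WT.

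Ntrk2, the one gene of the set above the negative control percentile, was set against 3764 bright rows by its deviation from the group and sex means over 28 arrays. The closest were Agpat1 (Pearson r = 0.84, Spearman rho = 0.76), an enzyme gene of phospholipid synthesis, Bsg (0.81 and 0.75), which encodes the membrane glycoprotein basigin, and Slc1a2 (0.80 and 0.70). Among the 36 pairs of growth factor genes, the same measure ran from -0.69 for Ntrk2 with Fgf2 to 0.51 for Lif with Hbegf. These values describe arrays that share tissue sampling and array scale, and genes are not independent replicates.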

How the data were processed

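Biotin-labelled cDNA from 100 ng of total RNA per animal was hybridised to 28 MTA 1.0 arrays, per the labels' protocols. The deposited table holds log2 signal, a unit read from its values (2.166 to 19.93). The normalization, the software and its version are not given in the sources used here, and the values were used without further scaling.

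Of 72688 rows, 6732 control rows were left out and 65956 were tested. Names came from the supplied probe annotation, with symbols updated through RefSeq genes of GRCm38.p6. In all, 31256 rows had 1 gene, 1362 listed several genes, 132 disagreed with the gene's chromosome and 33206 listed none.

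A linear model with 1 mean per group and an added sex effect was fitted to all rows with lmFit and eBayes of limma 3.58.1 (R 4.3.3), and it was tested on simulated data. Changes are CCI minus sham or KO minus WT. For the sex comparison, males and females of a group had means of their own. The p-values set differences against the spread between animals, each of which gave 1 array, and 7 arrays per group set the precision. Likeness is the correlation of residuals from the group and sex model.

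Named genes were the 10 growth factor genes, Rbm5, Nudt6 as the overlapping partner of Fgf2, and up to 3 called genes per pathway list, direction and injury comparison. The growth factor genes, the lists, the tests and the 7 arrays left out in one alternative were chosen with earlier results of these data known. List genes without a row of their own were not analysed here. Promoter windows were read from a RefSeq table for 9 of the 10 genes, all but Hbegf. For the listed genes, windows on chromosome 18, which holds Hbegf, were not used, whereas the shares over all genes had no such limit. Alternatives were no sex term, the title-number run as a covariate or alone, a fit to the compared groups alone, filters on row brightness and on annotation, 2 normalizations, a variance trend, array weights, a threshold of 0.01, the 7 arrays left out and each array left out in turn. Figures were drawn with matplotlib 3.10.9.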

Additional observations from a re-analysis of the deposited data

Results flagged for a closer look

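In 36 sets of 7 arrays, 1 for each measured gene and group, the gap between the most extreme array and its nearest neighbour was set against the whole range, with 0.568 as the critical ratio. Chance marks about 1 in 20 such sets, and 5 of 36 were marked. Bdnf in WT CCI replicate 13 was 5.71, where the other arrays of the group lay at 5.57 to 5.63. Ntrk2 in KO sham replicate 12 was 13.61, where the others lay at 13.41 to 13.50, and Ntrk2 in WT CCI replicate 35 was 12.90, where the others lay at 13.13 to 13.29. Ngfr in KO sham replicate 32 was 5.54, where the others lay at 5.77 to 5.90. Fgf2 in WT sham replicate 3 was 6.46, where the others lay at 6.21 to 6.30. WT CCI replicates 13 and 35 belong to the 7 arrays that stood apart by their striatum or choroid plexus markers. The calls of Bdnf, Ntrk2 and Fgf2 held without any single array.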

How the results depend on the processing

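No paired analysis was possible because the title numbers are unique to each array and no number is shared between groups. A comparison with other rows of the same gene was not run, since each measured gene had 1 row. Over 13 other settings, 0 of the 10 called growth factor values turned sign, and Hbegf in both genotypes and Fgf2 in KO kept their calls in all. The causes of the changes below were not tested. A fit within a run holds fewer arrays, and a filter leaves fewer rows, but neither was separated from other differences.

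Growth factor genes called for injury in WT numbered 2 in title numbers 1 to 24 and 3 in 25 to 42, and for injury in KO 2 in 25 to 42 and 4 to 6 without single arrays. Lif after sham was lost, leaving 0 called, at 0.01, within each run, with only the groups compared (adjusted p = 0.0578), with array medians centred (0.0521), with brighter rows only, which drops its row, and in 9 removals of 1 array (range 0 to 1). Vegfa in KO was called with brighter rows (0.0334), rows with 1 gene (0.0397) and medians centred (0.0197), and Bdnf in KO in title numbers 1 to 24 (-0.22, adjusted p = 0.0176).

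Rows called in WT injury were 7268 at 0.01, 5900 in the first run and 5217 in the second. In KO injury they were 7060 at 0.01 and 2567 in the second run. After sham they were 278 at 0.01, 472 and 5 in the runs, 1279 with array weights and 438 to 921 without single arrays, with the low counts after removal of WT sham 1, 2, 26 or 27 or KO sham 11 or 12. After CCI they were 181 at 0.01, 125 and 15 in the runs, 131 with only the groups compared, 187 without the 7 arrays and 298 to 508 without single arrays. Over both procedures they were 1006 at 0.01, 872 and 74 in the runs and 961 without the 7 arrays. The difference of injury changes had 1 row called among rows with 1 gene.

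Some uncalled values turned sign under an alternative. In the first run these were Lif in WT injury (-0.055), Ngfr in KO injury (-0.0047), after sham (0.064) and in the difference of injury changes (-0.0011). In the second run they were Bdnf in KO injury (0.088), Ntrk2 after sham (-0.042), after CCI (0.036) and in the difference (0.078), Igf1 after CCI (-0.056), and Fgf2 after sham (0.038), after CCI (-0.094) and in the difference (-0.13). Without the 7 arrays they were Fgf2 after CCI (-0.082) and in the difference (-0.019). With medians centred they were Lif and Igf1 in WT injury (-0.002 and -0.0029) and Vegfa after CCI (-0.0013), and with quantile normalization Igf1 in WT injury (-0.0024) and Ntrk2 after CCI (0.032). Without single arrays, ranges spanned 0 for Lif (-0.013 to 0.044) and Igf1 (-0.0076 to 0.022) in WT injury, Ntrk2 (-0.018 to 0.027) and Ngfr (-0.055 to 0.0058) after sham, Ntrk2 (-0.056 to 0.011), Vegfa (-0.032 to 0.068) and Fgf2 (-0.026 to 0.091) after CCI, and Ntrk2 in the difference (-0.074 to 0.0072). Of 64 values of named pathway genes, 34 lost a call in some other setting and 10 without some single array.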
